A study of Danio rerio with 10 samples.

Results

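The Hsp70, Hsp90, DnaJ and folding chaperone genes described here are those whose array symbol begins with *hspa*, *hsp70*, *hsp90*, *hspd1*, *hspe1*, *hsph1*, *dnaj*, *cct2* to *cct8*, *tcp1*, *pdia*, *bag1* to *bag6*, *hyou1*, *calr* or *canx*. Of 19260 genes with a probe set of their own, 95 matched, with 106 probe sets, and the brightest probe set stood for each gene. By the known place of the protein, 12 encode Hsp70, Hsp110 or Hsp90 proteins of the cytosol, 7 BAG proteins, 8 TRiC subunits, 27 DnaJ proteins of the cytosol or other places, 10 mitochondrial chaperones, 22 chaperones of the lumen of the endoplasmic reticulum (ER) and 7 DnaJ proteins of the ER membrane. The other 2, *tcp11l1* and *tcp11l2*, match the letters but encode no chaperone. The lumen class counts chaperones that act in the lumen, also those bound to the membrane, such as *canx*. On all 10 arrays 5 members (*dnajc12*, *dnajc22*, *dnajc28*, *dnajc5b* and *pdia2*) lay below the median signal of the array.

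Molecular chaperones hold, fold and refold other proteins. In the cytosol, Hsp70 proteins bind exposed stretches of client proteins in cycles driven by ATP, DnaJ proteins deliver the clients and start each cycle, BAG proteins release them, Hsp90 acts on nearly folded clients, and the barrel-shaped TRiC chaperonin encloses actin, tubulin and other clients. The ER and the mitochondria have Hsp70 and DnaJ proteins of their own, and mitochondria also have a chaperonin. The ER adds the lectin chaperones calnexin and calreticulin and the protein disulfide isomerases, which form disulfide bonds. Many cytosolic members are induced by heat shock factors, and many ER members by the unfolded protein response.

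Whole zebrafish embryos were pooled for RNA at 48 hpf. Morphants (3 arrays) were injected with T-MO, a morpholino that blocks translation of *islet2a*, a LIM-homeodomain transcription factor. Mutants (3 arrays) were homozygous for a short deletion in *islet2a*, made with TALENs, that shifts the reading frame. The control group held 2 arrays of uninjected wildtype embryos (labelled WT_control) and 2 arrays of homozygous wildtype siblings of the mutants (labelled mock_control), and no array of embryos injected with a control morpholino was analysed here. Each morphant array therefore differs from every control array by injection as well as by *islet2a*, and these cannot be told apart. In morphants and mutants alike *islet2a* was targeted. These groups differ by injection and by the means of targeting, which cannot be told apart either. The labels do not say whether pools came from separate clutches, so p-values measure the spread between these samples, which may be technical.

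The signals are log2 values from 1 array per pool, with array medians of 4.92 to 4.96, and the number of arrays limits the precision. The median SD between arrays of a labelled group was 0.104 over the members. A member was called at an adjusted p below 0.05 (limma on all 75212 probe sets, Benjamini-Hochberg adjustment). In whole embryos, fewer cells of a type and less RNA per cell cannot be told apart. The embryos showed their tissues. All 12 skeletal muscle markers, 6 of 6 neuron markers and 3 of 3 epidermal markers measured lay above the array median on every array, whereas 1 of 9 exocrine pancreas markers did.

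In morphants, some chaperone genes of the cytosol and of mitochondria were higher than in controls, and the 3 calreticulin genes of the ER were lower. Of the 95 members, 17 were higher in morphants than in controls, 6 were lower and 72 were not called, where 5.17% of all probe sets and 9.94% of genes with a single symbol were called (7.13% higher and 2.81% lower). The 6 lower include *tcp11l2*, which encodes no chaperone (log2 fold change -0.65, limma, adjusted p = 0.0290). Every morphant array lay above every control array for 33 of the 95 members and below for 13, against 16.2% and 11.9% of genes with a single symbol. The median log2 fold change was 0.11 over the members and -0.01 over genes with a single symbol. Cytosolic Hsp70, Hsp110, Hsp90, BAG and TRiC genes gave 5 higher and 0 lower of 27, mitochondrial genes 5 higher and 0 lower of 10, and genes of the ER lumen 2 higher and 5 lower of 22. None of the 7 DnaJ genes placed in the ER membrane was called (0 higher and 0 lower, 2 with an unadjusted p below 0.05). Without Morphant replicate 1, 11 members in place of 17 were higher.

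**Figure D1:**
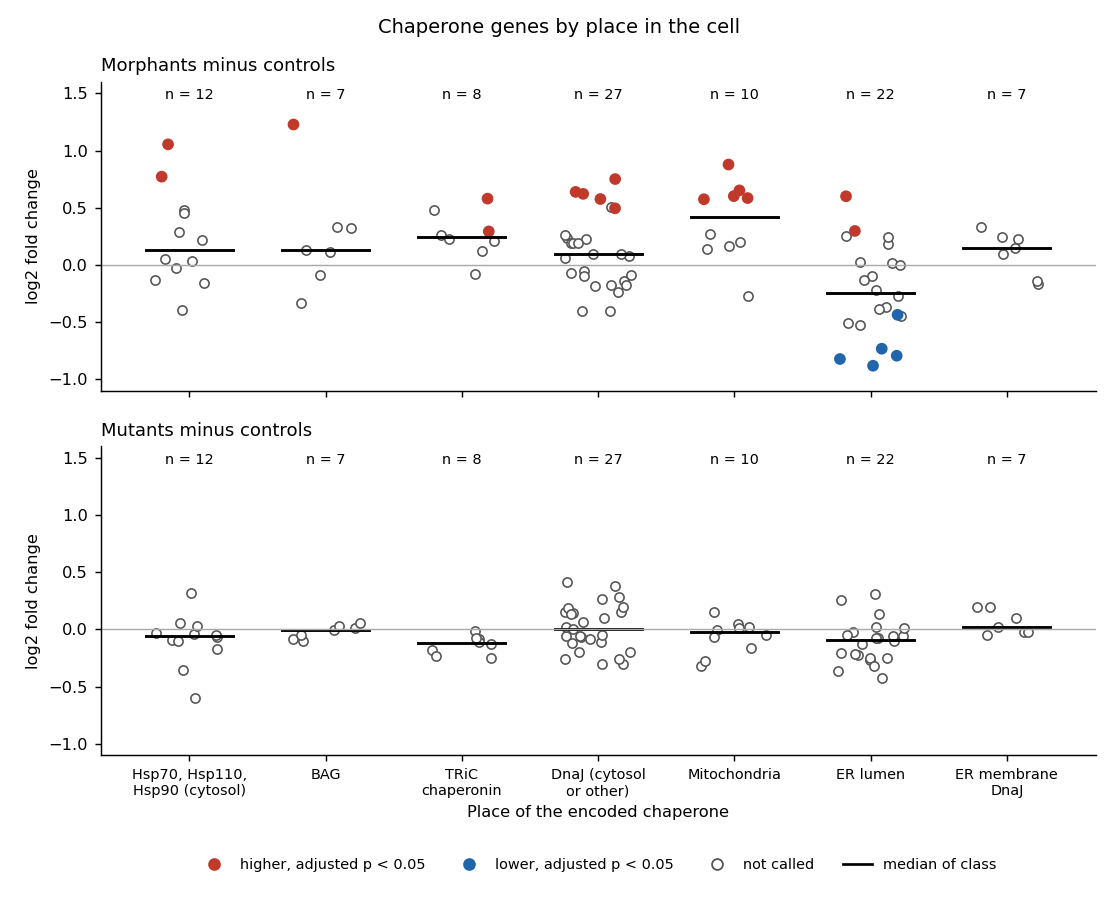
Log2 fold change of each chaperone gene against the 4 control arrays (vertical axis), grouped by the place of the encoded protein, for the 3 morphant arrays (upper) and the 3 mutant arrays (lower). Points are genes, filled where called by limma, and bars are class medians: in morphants the mitochondrial median is 0.42 and the ER lumen median -0.25, and in mutants no gene is called.

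In mutants, no chaperone gene was called against controls. The count was 0 higher and 0 lower of 95 by limma and 0 by the methods' one-way ANOVA, and 0.338% of all probe sets were called. An unadjusted p below 0.05 was found for 16 of the 95 members and for 3391 of 19260 genes with a single symbol. The member nearest to a call was *hspa13*, an Hsp70 protein of the ER, at 6.77, 6.85 and 6.79 in mutants. The controls lay between 6.45 and 6.52, and the adjusted p was 0.128 for a log2 fold change of 0.31. The median over the members was -0.05. The 95% confidence intervals of the mutant changes reached from -1.32 for *hsp90aa1.1* at the lowest to 0.69 for *dnajc6* at the highest, so that a moderate change was not detectable for the more variable members.

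Of the cytosolic Hsp70 and Hsp90 genes, the constitutive ones were not called on their brightest probe sets. A pair of Hsp70 genes was higher in morphants. *hspa8*, the constitutive Hsp70, read 12.30, 12.33 and 12.24 in morphants, 12.25, 12.25 and 12.11 in mutants and 12.20 to 12.34 in controls. The log2 fold change of *hspa8* was 0.04 in morphants, with a 95% interval of -0.14 to 0.21. *hsp90ab1*, the constitutive Hsp90, read 12.02, 12.16 and 12.00 in morphants and 12.16 to 12.24 in controls, a log2 fold change of -0.13 with an interval of -0.30 to 0.03. Both are among the brightest members, and neither was called in any comparison on these probe sets. A second probe set of *hspa8* gave -0.34 in morphants (limma, adjusted p = 0.0751), which was not called either. A probe set shared by *hspa8* and *mmachc* was called higher in morphants than in controls (log2 0.62, limma, adjusted p = 0.00819). It was also higher in morphants than in mutants (0.81, adjusted p = 0.00181). Which gene gave this signal is uncertain. A probe set shared by *hspa4a* and *zcchc10* gave 0.41 in morphants against controls with no call (limma, adjusted p = 0.128). Against mutants that probe set was called higher (0.63, adjusted p = 0.0192).

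*hspa14*, a ribosome-associated Hsp70 in mammals, read 8.92, 8.85 and 8.84 in morphants. Controls lay at 7.97 to 8.36 and mutants at 8.04 to 8.09, so every morphant array was above all other arrays. The rise was 1.71-fold (log2 0.77 ± 0.10 SE, limma, adjusted p = 0.00233). *hspa14* was not called against controls with the methods' one-way ANOVA (adjusted p = 0.0566). *hspa1b*, an Hsp70 of the heat-inducible type, read 5.90, 5.61 and 6.48 in morphants, against 4.87 to 5.14 in controls and 4.86 to 5.09 in mutants. Its rise was 2.08-fold (adjusted p = 0.00894), near the array median in controls. Closely similar Hsp70 genes can share probes, so which Hsp70 gene gave this signal is uncertain. *hspa8b* moved the same way without a call (5.18, 5.23 and 5.67 in morphants against 4.81 to 5.10, adjusted p = 0.0798). The heat-inducible genes *hsp70l* and *hsp70.3* have no probe set of their own here. On the brighter of the probe sets they share, morphants read 6.98, 7.21 and 7.10, mutants 6.81, 7.35 and 7.28, and controls 7.06 to 8.28, a log2 fold change of -0.54 in morphants (adjusted p = 0.277).

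*bag3* showed the largest rise of any member in morphants. BAG3 is a co-chaperone of Hsp70 that works with small heat shock proteins and is needed to maintain muscle. Its signal was 9.06, 8.94 and 9.42 in morphants, 8.02, 8.03 and 7.71 in mutants and 7.70, 8.19, 7.78 and 7.97 in controls. Morphants were 2.35-fold above controls (log2 1.23 ± 0.15 SE, limma, adjusted p = 0.00176) and 2.33-fold above mutants (adjusted p = 0.00167). The other six BAG genes were not called in morphants against controls. Among these, *bag1* gave 0.13, *bag2* 0.32 and *bag6* 0.11, and *bag6l* gave -0.33 (adjusted p = 0.0794) on the log2 scale.

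*bag3* and *hspa1b* were the only members called with a change of 2-fold or more in either direction, and this held in morphants against controls and in morphants against mutants. Among genes with a single symbol, 0.94% and 1.83% were higher in these comparisons at that size. With the methods' one-way ANOVA neither gene was called in either comparison, with adjusted p of 0.0584 and 0.0548 for *bag3* and 0.125 and 0.122 for *hspa1b*, the highest under any setting tried. The lowest were 0.000192 and 0.000213 for *bag3* and 0.00143 in both comparisons for *hspa1b*. Of the 12 skeletal muscle markers, 2 were also higher in morphants than in controls, where 7.13% of genes with a single symbol were higher. They were the myogenic factors *myod1* (log2 0.82, adjusted p = 0.0128) and *myog* (0.56, adjusted p = 0.0121). The mean of the whole muscle list, centred on each gene's mean, was 0.06 to 0.10 on morphant arrays, -0.10 to 0.05 on control arrays and -0.16 to -0.02 on mutant arrays. The part of muscle in the *bag3* result was not tested.

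**Figure D2:**
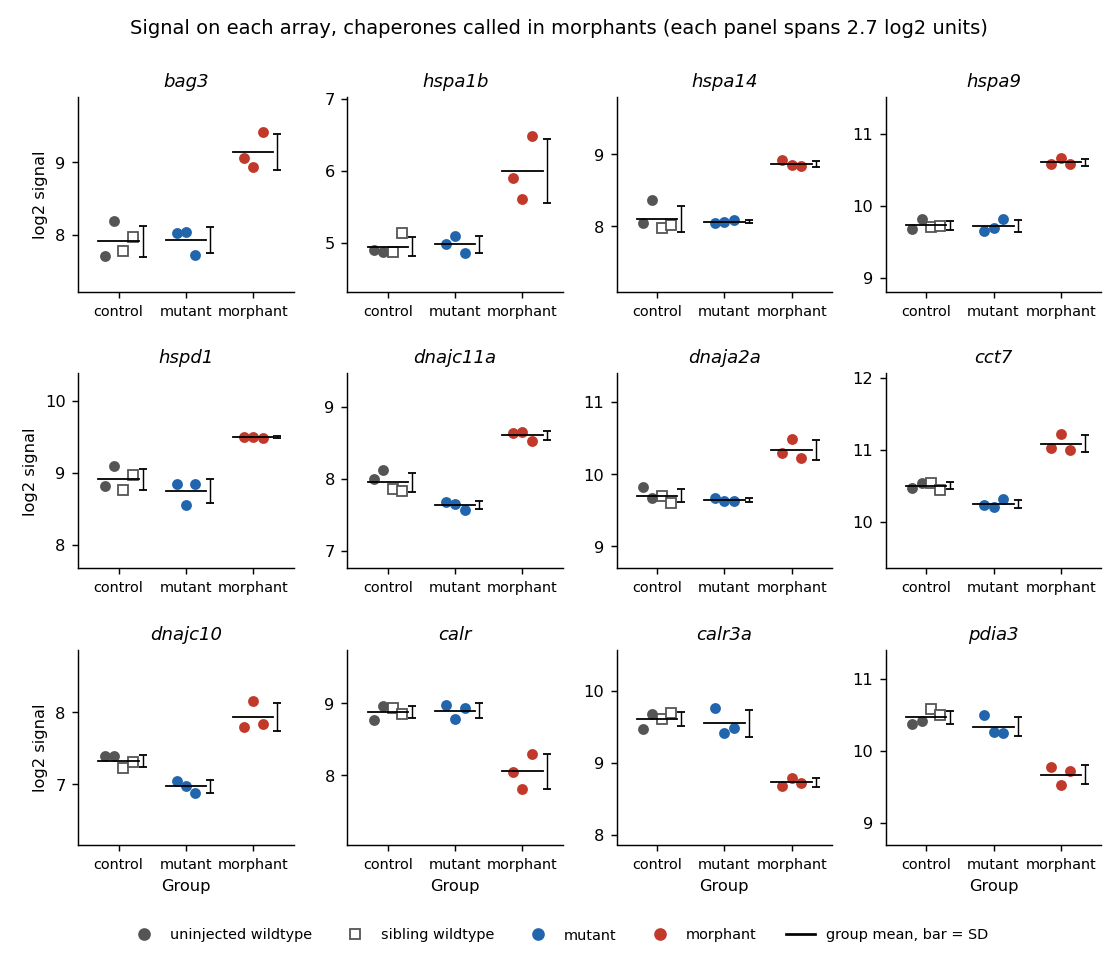
Log2 signal (vertical axis) on each of the 10 arrays for 12 chaperones called in morphants, by group (horizontal axis), with the group mean as a line and the SD as a bar. In every panel the 3 morphant arrays lie outside the range of the 4 control and 3 mutant arrays, above it for 9 genes from *bag3* to *dnajc10* and below it for *calr*, *calr3a* and *pdia3*.

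The TRiC chaperonin is built from 8 kinds of subunit, each with its own gene, and all of these were measured. *cct7* was higher in morphants, at 11.03, 11.21 and 11.00, against 10.45 to 10.54 in controls and 10.20 to 10.31 in mutants. The rise over controls was 1.49-fold (log2 0.58 ± 0.08 SE, limma, adjusted p = 0.00347). *cct8* rose by 0.29 (adjusted p = 0.0389, but no longer called when any of the 10 arrays was left out). *tcp1* read 10.57, 10.94 and 10.47 against 10.06 to 10.27 in controls, a log2 fold change of 0.48 that was not called (adjusted p = 0.0593). For *cct2*, *cct4* and *cct5* every morphant array also lay above every control array, with log2 fold changes of 0.26, 0.21 and 0.23 and adjusted p of 0.124 to 0.257. *cct3* at 0.13 and *cct6a* at -0.08 overlapped with controls.

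In mutants all 8 subunits had a negative log2 fold change, from -0.25 for *cct7* to -0.02 for *cct3*, none of them called. Morphants were above mutants at 6 of 8 subunits, with 13.6% of all probe sets called in that comparison. The differences were 0.83 for *cct7*, 0.72 for *tcp1*, 0.39 for *cct2*, 0.39 for *cct4*, 0.37 for *cct8* and 0.31 for *cct5* on the log2 scale, with adjusted p of 0.000552 to 0.0320. The calls of *cct2*, *cct4* and *cct5* were lost when some single arrays were left out, Mutant replicates 2 and 3 among them. Their adjusted p reached up to 0.110 under the settings tried. With the methods' one-way ANOVA these calls and that of *tcp1* were lost. With the mean of all probe sets of a gene, those of *cct2* and *cct8* were lost. Second probe sets gave 0.28 for *cct2* and 0.20 for *cct8*, neither called (limma, adjusted p = 0.223 and 0.364). A probe set shared by *cct5* and *cmbl* gave -0.26 with no call (adjusted p = 0.176). Over the 8 subunits the centred mean signal was 0.20, 0.28 and 0.20 on the morphant arrays, -0.06 to -0.01 on control arrays and -0.24 to -0.11 on mutant arrays. The 3 groups did not overlap in this mean. Prefoldin hands unfolded actin and tubulin to TRiC. Of its 6 subunit genes, 4 were higher in morphants than in controls, where 7.13% of genes with a single symbol were higher. The prefoldin genes called were *pfdn2* (0.76), *vbp1* (0.44), *pfdn4* (0.40) and *pfdn6* (0.39 on the log2 scale), with adjusted p of 0.00318 to 0.0425.

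Of the chaperone classes, the mitochondrial one held the largest share of calls in morphants, 5 of 10. *hspa9*, the Hsp70 of the mitochondrial matrix, read 10.58, 10.66 and 10.57 in morphants, 9.66, 9.70 and 9.82 in mutants and 9.68 to 9.82 in controls. It was 1.84-fold higher in morphants than in controls (log2 0.88 ± 0.08 SE, limma, adjusted p = 0.000349, the lowest of any member). In mutants its log2 fold change was 0.00, with a 95% interval of -0.18 to 0.17. *hspd1*, the chaperonin Hsp60, read 9.50, 9.50 and 9.48 in morphants against 8.77 to 9.09 in controls, a rise of 0.58 on the log2 scale (adjusted p = 0.0126).

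The rises of the DnaJ partners in mitochondria were of similar size. *dnaja3a* and *dnaja3b*, copies of the gene for the DnaJ partner of matrix Hsp70, rose by 0.60 and 0.57 on the log2 scale, and *dnajc11a*, whose human counterpart acts at the mitochondrial membranes, rose by 0.65. Their adjusted p were 0.00311, 0.0119 and 0.00318. *hspe1*, the Hsp10 lid of Hsp60, read 7.29, 7.24 and 7.37 against 6.95 to 7.35 in controls and was not called (0.16, adjusted p = 0.476). A second, dimmer probe set of *hspe1* gave 0.37 in morphants (limma, adjusted p = 0.0740). There every morphant array lay above every control array, again with no call. Against mutants that probe set was called higher in morphants (0.40, limma, adjusted p = 0.0379). In the zebrafish reference annotation *hspe1* is the neighbour of *hspd1*. *dnajc15* and *dnajc19*, which belong to the import motor of the inner membrane, gave 0.27 and 0.20 with no call. Without Morphant replicate 1, *hspd1* and *dnaja3b* were no longer called. Both calls were also lost with the methods' one-way ANOVA and with uninjected wildtype alone as control. That of *hspd1* was lost with the replicate number as a block too.

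Of 6 other genes of mitochondrial protein folding measured, 3 were higher in morphants than in controls, against 7.13% of genes with a single symbol. They were *grpel1*, the nucleotide exchange factor of matrix Hsp70 (0.54, adjusted p = 0.00814), and the matrix protease genes *lonp1* (0.59, 0.0100) and *clpp* (0.45, 0.0363). In mutants none of the 10 mitochondrial chaperone genes was called, with 2 at an unadjusted p below 0.05, *dnajc11a* at -0.32 and *dnajc15* at -0.27. *dnajc30a* had an outlying value. Morphant replicate 2 read 6.76, where the other arrays read 7.77 to 8.21. That array also read lowest for members of other classes, *dnajc8* (9.25 against 10.13 to 10.56), *dnajb6a* (6.61 against 7.09 to 7.54) and *dnajb11* (7.83).

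**Figure D3:**
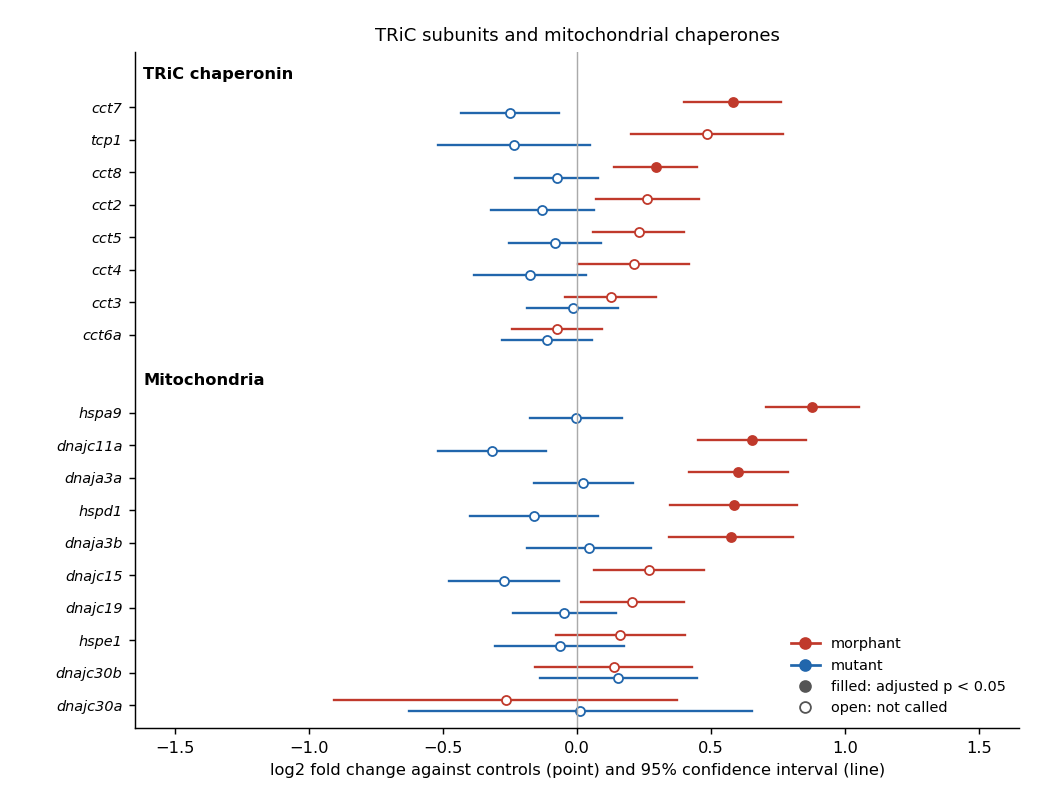
Log2 fold change against controls (horizontal axis) with its 95% confidence interval for the 8 TRiC subunits and the 10 mitochondrial chaperones, in morphants and in mutants. Filled points are called by limma: *cct7* and *cct8* and 5 mitochondrial genes in morphants, none in mutants, where *cct7*, *dnajc11a* and *dnajc15* have intervals below 0 before adjustment.

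In the lumen of the ER the calreticulins and their partner *pdia3* were lower in morphants. Calreticulin is a calcium-binding lectin that holds newly made glycoproteins, and PDIA3 is the disulfide isomerase that works on the clients it holds. *calr3a* read 8.67, 8.79 and 8.72 in morphants, 9.76, 9.41 and 9.48 in mutants and 9.47 to 9.68 in controls. *calr* read 8.05, 7.81 and 8.30 in morphants against 8.77 to 8.96 in controls. *calr3b* read 9.51, 9.51 and 9.71 against 10.11 to 10.47, and *pdia3* read 9.77, 9.52 and 9.72 against 10.37 to 10.58. For each of these genes all morphant arrays lay below all control and mutant arrays.

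Controls exceeded morphants 1.84-fold for *calr3a*, 1.77-fold for *calr*, 1.66-fold for *calr3b* and 1.73-fold for *pdia3*. The log2 fold changes were -0.88, -0.82, -0.73 and -0.79, with adjusted p of 0.00127 to 0.00802 (limma). With the methods' one-way ANOVA *calr* and *calr3b* were not called against controls, while *calr3a* and *pdia3* were. The call of *calr3b* was also lost with uninjected wildtype alone as control. Against mutants each of these genes was called by limma but not by that ANOVA (adjusted p of 0.0514 to 0.0911). *pdia8* was also lower (-0.44, adjusted p = 0.0497) but lost its call without 8 of the 10 arrays in turn. In mutants *calr3a*, *calr*, *calr3b* and *pdia3* gave -0.06, 0.02, -0.10 and -0.13, none called. *canx*, the membrane-bound lectin related to calreticulin, read 10.68, 10.71 and 10.69 in morphants against 10.76 to 10.83, a log2 fold change of -0.10 with an interval of -0.25 to 0.06.

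Both genes of the ER lumen class that were called higher in morphants take part in disulfide chemistry. *dnajc10*, a DnaJ protein that reduces disulfide bonds, read 7.79, 8.15 and 7.84 in morphants, 7.05, 6.98 and 6.88 in mutants and 7.22 to 7.40 in controls. It was 1.52-fold above controls (adjusted p = 0.00974) and 1.94-fold above mutants (adjusted p = 0.000853). Its call against controls was lost with the methods' one-way ANOVA and with uninjected wildtype alone as control. *pdia7*, of the disulfide isomerase family, rose by 0.30 (adjusted p = 0.0466, not called when any single array was left out). In the reference annotation *pdia7* lies next to *cct3*.

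The general stress-responsive ER chaperones were not called in either group. *hspa5*, the ER Hsp70 also known as BiP, read 10.65, 10.57 and 10.90 in morphants, 10.55, 10.11 and 10.71 in mutants and 10.38 to 10.83 in controls, so all groups overlapped. Its log2 fold change was 0.02 in morphants, with a 95% interval of -0.34 to 0.39. *hyou1*, the exchange factor for this Hsp70, gave 0.18 and *dnajc3a*, a DnaJ partner, 0.02. *hsp90b1*, the ER Hsp90, gave -0.51, *pdia6* -0.52, *pdia4* -0.38, *dnajb11* -0.45, *dnajb9a* -0.22 and *dnajb9b* -0.27, with adjusted p of 0.129 to 0.569. For *dnajb11* the value rests on Morphant replicate 2, which read 7.83 where the others read 8.94 and 9.04. Without that array the log2 fold change was -0.06. *hsp90b1*, *pdia6*, *pdia4* and *dnajb9a* had 95% intervals below 0 in morphants before adjustment. In mutants these genes gave -0.07, -0.42, -0.32 and 0.14, none called. *pdia2*, the disulfide isomerase known from pancreas, stayed below the array median on all arrays, and none of 9 exocrine pancreas markers was called (0 with an unadjusted p below 0.05).

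Of 34 other genes of ER folding and quality control, 1 was higher and 2 were lower in morphants than in controls, a called share of 8.82% that was close to the 9.94% of genes with a single symbol. *xbp1*, a transcription factor of the unfolded protein response, rose by 0.32 (adjusted p = 0.0389). *sdf2l1*, which partners the ER Hsp70, fell by 0.58 (0.00991) and *creld2*, an ER stress protein, fell by 0.53 (0.0482). *atf6*, another factor of that response, gave 0.09 with no call. The array does not show the splicing of *xbp1* that makes its active form.

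**Figure D4:**
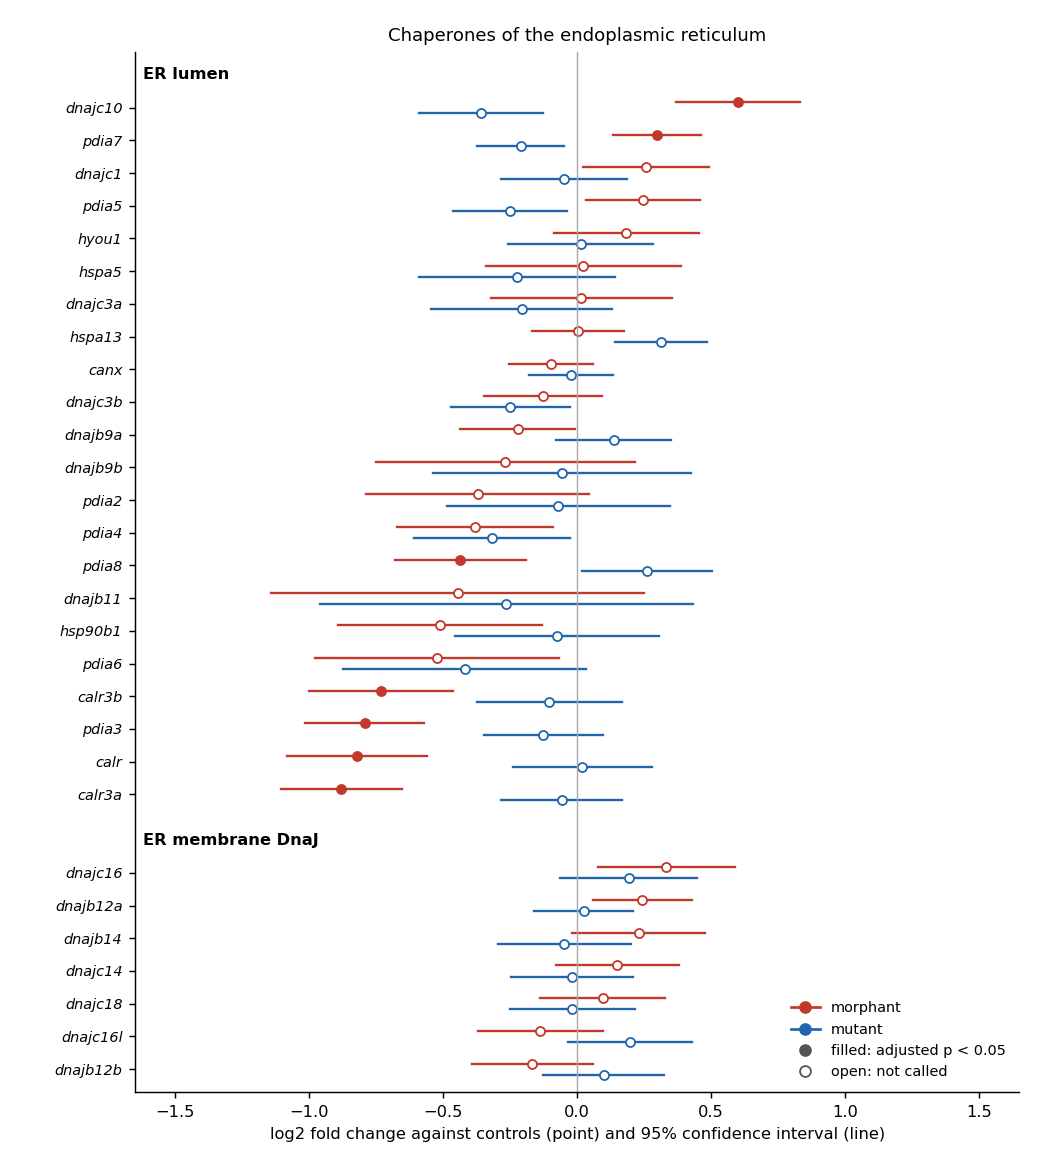
Log2 fold change against controls (horizontal axis) with its 95% confidence interval for the 22 chaperones of the ER lumen and the 7 DnaJ genes of the ER membrane. In morphants *calr3a*, *calr*, *pdia3*, *calr3b* and *pdia8* are called lower and *dnajc10* and *pdia7* higher (filled), while *hspa5* and *canx* have intervals that span 0 in both groups.

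DnaJ proteins of the cytosol or other places formed the largest class, and 5 of its 27 genes were higher in morphants with 0 lower. Places were assigned from background knowledge of the symbols, and *dnajc25* in this class may belong to the ER membrane. *dnajc21*, which acts in the making of the large ribosomal subunit, read 7.80, 7.65 and 7.54 against 6.81 to 6.97 in controls, a 1.68-fold rise (log2 0.75 ± 0.09 SE, adjusted p = 0.00143). *dnaja2a*, a general DnaJ partner of cytosolic Hsp70, read 10.29, 10.49 and 10.22 against 9.60 to 9.82, a 1.56-fold rise (adjusted p = 0.00334). This rise was not called with the methods' one-way ANOVA (adjusted p = 0.0525). *dnajc25* rose by 0.62, *dnajb2* by 0.58 and *dnajc24*, a factor of diphthamide synthesis, by 0.50 on the log2 scale. The call of *dnajb2* was lost without 8 of the 10 arrays in turn, and that of *dnajc24* without Morphant replicate 1 or 3. Both calls were also lost with that ANOVA, with the replicate number as a block and with uninjected wildtype alone as control. *dnaja2b*, the second copy of *dnaja2a*, gave -0.14 and was not called. A probe set shared by *dnajc2* and *pmpcb* was higher in morphants than in controls (1.18, limma, adjusted p = 6.13e-05). Another probe set shared by these genes was not called (0.34, adjusted p = 0.173), and which gene gave the signals is uncertain. Of all 48 DnaJ genes in every place, 9 were higher and 0 lower, against 7.13% and 2.81% of genes with a single symbol.

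The heat-inducible DnaJ genes *dnaja1*, *dnajb1a* and *dnajb1b* gave 0.23, 0.10 and 0.08, with adjusted p of 0.643 or more. Of 20 measured co-chaperones of cytosolic Hsp70 and Hsp90, 2 were higher in morphants than in controls, a share close to the 9.94% called among genes with a single symbol. These were *ttc4* (8.17, 8.11 and 8.12 against 6.96 to 7.27, adjusted p = 0.000447) and *unc45b*, the chaperone of muscle myosin (9.68, 9.42 and 9.79 against 8.14 to 8.95, adjusted p = 0.0234). Both rose by about 1 on the log2 scale (1.01 and 1.00). Set against mutants, 11 of the 20 co-chaperones were higher in morphants and 0 were lower. In that comparison 13.5% of genes with a single symbol were higher and 9.63% lower. Of 6 heat shock regulators, 1 was called lower, *hsf4* (-0.85, adjusted p = 0.0492), a heat shock factor known for its role in the lens, while *hsf1* gave 0.05 and *hsf2* -0.46 with no call. The lens markers moved with *hsf4*, since 3 of 5 were lower in morphants than in controls, against 2.81% of genes with a single symbol. The centred mean of the lens markers was -0.98 to -0.42 on morphant arrays, -0.02 to 0.27 on control arrays and 0.28 to 0.56 on mutant arrays. The part of the lens in the *hsf4* result was not tested.

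Set against mutants, morphants showed more calls than against controls. Of the 95 members, 25 were higher in morphants than in mutants, 13 were lower and 57 were not called, where 23.1% of genes with a single symbol were called (13.5% higher and 9.63% lower). The 13 lower include *tcp11l2*, which encodes no chaperone (-0.64 on the log2 scale, limma, adjusted p = 0.0208). Without Morphant replicate 1, Mutant replicate 2 or Mutant replicate 3, 7 in place of 13 were lower. The median difference was 0.17 over the members. Besides genes named above, *hspa4b*, of the Hsp110 family, was higher by 0.38, *pdia5* by 0.50, *dnajc15* by 0.54 and *dnajc5gb* by 0.38 on the log2 scale. Both comparisons use the same morphant arrays, so their calls are not independent.

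A few DnaJ genes and *hspa4l* were lower in morphants than in mutants, with the control mean between. *dnajc6*, which encodes auxilin, the DnaJ protein that uncoats clathrin vesicles in neurons, read 6.63, 6.63 and 6.95 in morphants, 6.96 to 7.25 in controls and 7.33, 7.70 and 7.64 in mutants. Its difference was -0.82 (limma, adjusted p = 0.00391), and the 3 groups did not overlap. *hspa4l*, an Hsp110 relative, read 6.06, 5.81 and 6.18 in morphants, 6.31 to 6.48 in controls and 6.53, 6.72 and 6.93 in mutants, a difference of -0.71 (adjusted p = 0.00587). *dnajc5aa*, which encodes a cysteine string protein of synaptic vesicles, differed by -0.56, *dnajc27* by -0.52 and *dnajc4* by -0.38. None of these was called against controls in either group, with unadjusted p below 0.05 for *dnajc6* and *hspa4l* in both. Of 6 neuron markers, 4 were also lower in morphants than in mutants, where 9.63% of genes with a single symbol were lower. This was not particular to neurons, since 2 of 4 erythrocyte markers and 3 of 5 lens markers were lower too. The centred mean of the neuron markers was -0.49 to -0.09 on morphant arrays, -0.19 to 0.04 on control arrays and 0.11 to 0.49 on mutant arrays. The part of neurons in these differences was not tested.

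The difference between the perturbations was also measured with each set against its own kind of wildtype, uninjected embryos for morphants and siblings for mutants, so that no array was shared. In that test 3 members were called, with 0.775% of all probe sets called, and 35 had an unadjusted p below 0.05. The share of all genes at that unadjusted level was not counted. The change of *hspa9* was 0.86 in morphants and 0.01 in mutants, a difference of 0.84 ± 0.14 SE (limma, adjusted p = 0.0348). For *cct7* the changes were 0.57 and -0.25, a difference of 0.82 (adjusted p = 0.0443). For *dnajc11a* they were 0.55 and -0.21, a difference of 0.76 (adjusted p = 0.0434). For *bag3* the difference was 1.15 with an adjusted p of 0.0939, and for *calr3a* -0.75 with an adjusted p of 0.0957. No member was called between uninjected and sibling wildtype at an adjusted p below 0.05 (0 of 95). The share of all probe sets called there was not counted. That comparison sets 2 arrays against 2, so it does not show that the kinds of wildtype are alike.

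A few chaperone genes, some of them heat-responsive, varied widely between control arrays. Over the members the median SD between the 4 control arrays was 0.118, below the 0.139 over genes with a single symbol, and 9 of 95 members (9.47%) had an SD above 0.3, as did 7.06% of genes with a single symbol. The highest SDs were those of *hsp90aa1.1* (0.63) and *hsp90aa1.2* (0.61), Hsp90 genes that respond to heat and are expressed in muscle. *hsp90aa1.1* read 9.27 and 8.94 on control replicates 1 of the uninjected and the sibling wildtype, and 10.12 and 10.21 on their replicates 2. *hsp90aa1.2* read 7.67 and 8.24 on replicates 1 and 8.92 and 8.95 on replicates 2. *dnaja1* and *dnajb1a* were split the same way, as were the co-chaperone *chordc1a* (6.65 and 6.62 against 7.75 and 7.52) and *serpinh1b*, the collagen chaperone of the ER (7.45 and 7.67 against 9.36 and 9.08). Other members with an SD above 0.3 were *dnajb11* (0.49), *bag2* (0.41), *pdia2* (0.39), *pdia6* (0.34) and *dnajb9b* (0.31). Of these, *bag2* and *dnajb9b* were split in that way, and *dnajb11*, *pdia2* and *pdia6* were not.

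Over all 95 members, 21 (22.1%) were higher in both controls numbered 2 than in both numbered 1, and 16 (16.8%) were lower, against 20.2% and 16.6% of genes with a single symbol. Such a split did not by itself mean a wide spread, since *hspa9* was split with a control SD of 0.06. Changes of the genes with a wide spread between control arrays were measured with little precision in morphants and mutants. *hsp90aa1.1* read 10.18, 9.86 and 10.32 in morphants and 9.45, 8.49 and 9.18 in mutants, so morphants lay above mutants on every array. Controls reached across both, and the difference of 1.08 was not called (adjusted p = 0.0693). *serpinh1b* read 9.87, 9.67 and 9.76 in morphants and 7.85, 7.57 and 7.97 in mutants. It was higher in morphants than in mutants by 1.97 on the log2 scale (adjusted p = 0.0168), with control replicates 2 near the morphants and control replicates 1 near the mutants.

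**Figure D5:**
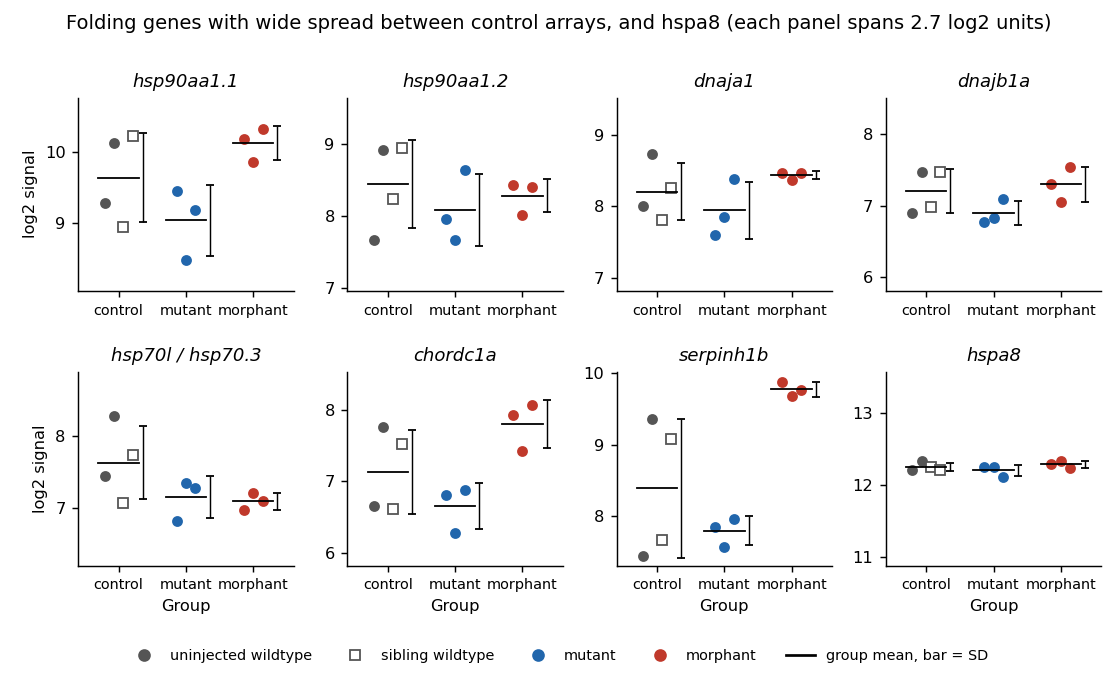
Log2 signal (vertical axis) on each array for 7 folding genes whose control arrays were spread widely and for *hspa8*, by group, with group mean and SD (genes chosen after their values were seen). In *hsp90aa1.1*, *chordc1a* and *serpinh1b* a pair of control arrays lies near the morphants and another pair near the mutants, whereas the 10 values of *hspa8* lie between 12.11 and 12.34.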

How the data were processed

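No further normalization was applied to the deposited log2 signals of 75212 probe sets on 10 arrays, 1 per pool, from 100 ng of RNA. Per the methods the authors made these log2 values by robust multi-array averaging in R, whereas the submitters' processing notes name GCRMA, and no version is given in the sources used here. Quantile normalization makes the array distributions equal, so that a shift of all genes together would not show, and signals of different genes cannot be compared as levels.

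The 3 groups were compared in R 4.3.3 with limma 3.58.1 on all 10 arrays (7 residual and 3.13 prior degrees of freedom), without filters and two-sided, with Benjamini-Hochberg adjustment over all probe sets. As in the methods, both kinds of wildtype formed the control. A fit with 4 groups gave the difference of the changes against own wildtype. Calls needed an adjusted p below 0.05. The 2-fold threshold of the methods, their one-way ANOVA, each kind of wildtype alone, other normalizations, filters, a trended prior, the replicate number as a block and leaving out each array were alternatives. The steps were tested on simulated data.

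Gene symbols came from the platform annotation, and all 95 members were found under the same symbol in a reference annotation (GRCz12tu), used for names and neighbours only. Left out were 12 probe sets that match the rule but carry several symbols, except where they are named as shared. The text names up to 8 members higher and 8 lower per comparison with the largest changes, and lead members of each class. Of the other folding genes (companion genes) it names those called in morphants against controls, and *hsf1*, *hsf2* and *atf6* whatever their values. Companion genes called only against mutants were mostly not named. Other called members, *chordc1a* and *serpinh1b* were chosen after their values were seen. The members and lists were chosen with earlier results of these data known. A planned search of promoter motifs was not run here. Figures were drawn with Python 3.11.15 and matplotlib 3.10.9.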

Additional observations from a re-analysis of the deposited data

Results flagged for a closer look

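Among the 52 named members, a pair of single control arrays stood apart from the others of the 4 by a gap above Dixon's critical value, which chance passes in about 1 in 20 groups. *hspa1b* read 5.14 on sibling wildtype replicate 2 (labelled mock_control), where the other control arrays read 4.87 to 4.90. *cct4* read 10.44 on sibling wildtype replicate 1, where the others read 10.65 to 10.69.

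For 3 members the change in morphants against uninjected wildtype differed from the change in mutants against sibling wildtype, by limma's test of the difference itself. The difference on the log2 scale was 0.84 for *hspa9* (adjusted p = 0.0348), 0.76 for *dnajc11a* (adjusted p = 0.0434) and 0.82 for *cct7* (adjusted p = 0.0443).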

How the results depend on the processing

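Among the 52 named members, no call changed its direction under any alternative. The direction of the other members was not checked in this way. Of the 23 calls in morphants against controls, 15 were kept without each array in turn and 8 in all 21 settings, and of the 38 calls in morphants against mutants, 26 and 14 (19 settings). For morphants against controls, the 17 higher and 6 lower became 8 and 2 with the methods' one-way ANOVA, 10 and 3 with uninjected wildtype alone as control, and 2 and 0 with the 2-fold threshold. With only probe sets of a single symbol tested, so that fewer tests were adjusted for, 10 were lower. Leaving out 1 array gave 11 to 15 higher and 4 to 7 lower. For morphants against mutants, the 25 higher and 13 lower became 15 and 0 with the ANOVA and 2 and 0 with the 2-fold threshold, and leaving out 1 array gave 20 to 26 higher and 7 to 12 lower. Mutants against controls gave 0 in every setting. The replicate numbers did not pair the samples (correlation of deviations 0.03, -0.10 and -0.01 between same-numbered morphants and mutants), and with the replicate number as a block the counts were 12 higher and 5 lower in morphants against controls, 0 and 0 in mutants against controls, and 23 and 10 in morphants against mutants. With 3 or 4 arrays a group, changes well under 2-fold can go undetected, above all near background, and an exact permutation test of 3 against 4 arrays cannot go below p = 0.0571.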
